A study of Homo sapiens with 6 samples.

Results

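The genes described here are those whose response to regorafenib differed between the cholangiocarcinoma cell lines HuccT1 and KKU-100. The response of a gene in a line was taken as the mean log2 signal of the 1 μM and 10 μM arrays minus the log2 signal of the solvent array, and the difference of responses as the value in HuccT1 minus the value in KKU-100. Of 19775 genes on the arrays, 12033 lay at or above the median signal in both lines, and 584 of these (4.85%) had responses at least 2-fold apart. The response of 271 genes was higher in HuccT1 (2.25% of the genes past the level filter) and that of 313 was higher in KKU-100 (2.6%). In 62 of the 584 genes the responses were past 1.5-fold in opposite directions, 26 up in HuccT1 and down in KKU-100 (0.216%) and 36 down in HuccT1 and up in KKU-100 (0.299%). All of these values come from the contrast that chose the genes, so they describe the 6 arrays and carry no test.

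Both lines derive from human bile duct carcinoma, and each was given solvent, 1 μM regorafenib or 10 μM regorafenib, with 1 array for each of the 6 conditions. Per the labels, all 6 samples came from stably transduced cells selected with puromycin, and the construct is not named there. The doses are those of the labels, and the study's text gives lower ones for the same experiment, with an exposure of hours. With 1 array a condition no value has a replicate, each line's response rests on 1 solvent array, and whatever else differed between the cultures cannot be told apart from the line or the drug.

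Regorafenib is an oral inhibitor of several kinases, among them receptor tyrosine kinases of blood vessel and stromal growth and the RAF kinases that feed the MAP kinase cascade. Immediate early genes such as EGR1 and FOS are switched on within minutes by this cascade and report its output, and their mRNAs decay quickly once the signal stops. The integrated stress response is a separate programme, in which kinases such as PERK slow translation and the transcription factor ATF4 raises genes of amino acid supply, redox balance and the response to unfolded proteins.

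Signals are linear intensities, whose array medians ranged from 28.8 to 29.3. The epithelial keratins KRT8 and KRT18 had high signals in both lines. Of 8 biliary epithelial markers 5 lay above the median on all arrays, these keratins, KRT7, SOX9 and MUC1. In KKU-100 KRT7 lay between 917 and 1227, SOX9 between 546 and 1059 and MUC1 between 520 and 654. KRT7 was far higher in HuccT1, between 10354 and 11038. KRT19 and EPCAM, also usual markers of biliary epithelium, lay between 7654 and 9321 and between 6432 and 6682 in HuccT1. In KKU-100 KRT19 lay between 8.62 and 11.1 and EPCAM between 8.95 and 11.0. CDH1 was low there too, between 22.9 and 79.9. The summed signals of 5 fibroblast markers ranged from 269.9 to 347 in HuccT1 and from 258 to 296 in KKU-100, and those of 2 blood, 3 endothelial and 3 hepatocyte markers were also low in both lines, between 46.9 and 120.2. Housekeeping genes responded alike, with a median difference of 0.01 over 11 genes and 0 genes at 2-fold.

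**Figure D1:**
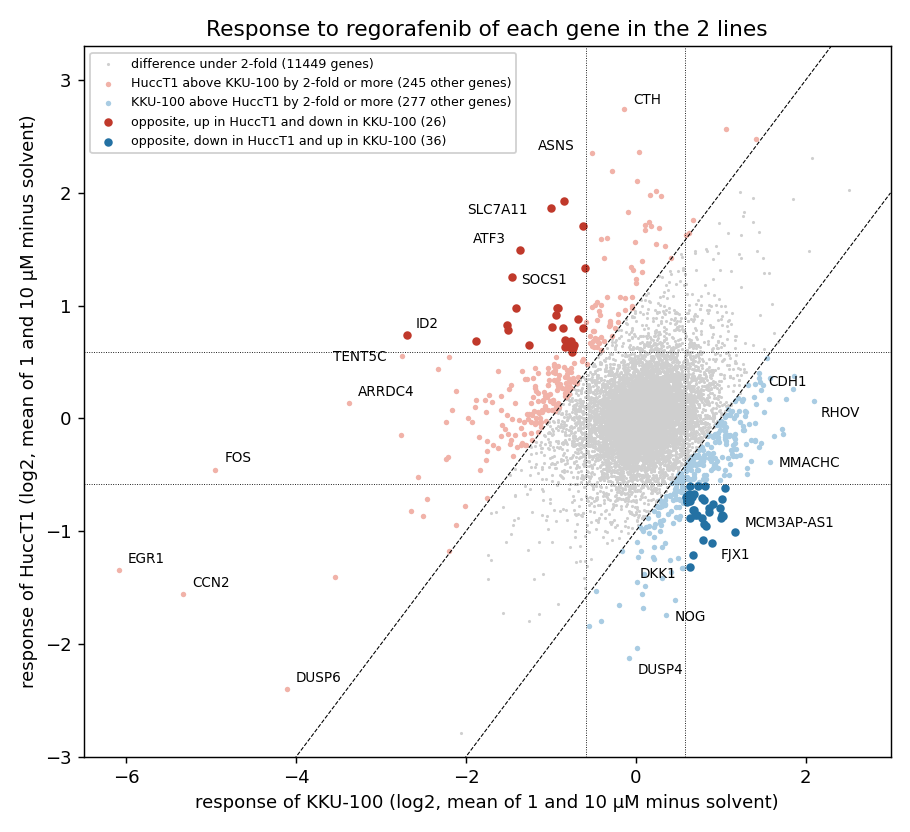
Response of each of 12033 genes in KKU-100 (x axis) and HuccT1 (y axis), both as log2 of the mean of the 1 and 10 μM arrays over solvent. Dashed lines mark a 2-fold difference of responses and dotted lines 1.5-fold in 1 line. The 26 and 36 genes with opposite responses stand in the upper left and lower right, and EGR1, FOS and CCN2 lie farthest to the left.

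The spread of responses was wider in KKU-100, with an SD of 0.426 over genes against 0.343 in HuccT1, and 1668 genes were past 1.5-fold there against 932 in HuccT1. Up in both were 153 genes and down in both 85. Across the 12033 genes, which are not independent replicates, the correlation between the responses was 0.227 (Pearson) and 0.179 (Spearman). Among the genes with a 2-fold difference the larger response was that of KKU-100 in 191 of 271 and in 202 of 313, against 56.5% of all genes. The sign of the difference was the same at both doses in 583 of the 584 genes. This follows largely from how they were chosen. Their difference is the mean over both doses, and both doses use the same solvent arrays.

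The 26 genes up in HuccT1 and down in KKU-100 included the following. SLC7A11, the cystine transporter that supplies glutathione synthesis, had signals of 209, 431 and 1347 in HuccT1 against 2034, 830.5 and 1239 in KKU-100, in the order solvent, 1 μM and 10 μM. All signals here are given in this order, those of HuccT1 first. The HuccT1 signal went from far below the KKU-100 level to above it at 10 μM, and the difference of responses was 2.87. EIF2AK3, which encodes the stress kinase PERK, had 292, 338 and 780.1 in HuccT1 against 1106, 443 and 701 in KKU-100, a difference of 1.80. ERN1, the gene of IRE1, the other kinase that senses unfolded proteins, had 489.6, 491 and 1179.7 against 435, 126 and 513, so that its opposite response came from the 10 μM array in HuccT1 and the 1 μM array in KKU-100.

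GADD45B, a stress-induced regulator of MAP kinase signalling and growth arrest, had all 4 changes against solvent in the direction of its line. Its signals were 556, 825 and 1457 in HuccT1 against 1259.7, 381 and 590.3 in KKU-100, with a difference of 2.39, and its 3 other probe sets gave 1.10, 2.10 and 2.19. ATF3, a transcription factor induced by stress and by MAP kinase signals, had 105, 99.9 and 875 in HuccT1 against 1134, 121 and 1588 in KKU-100. Here the lines differed mainly at the start, since ATF3 in KKU-100 began far above HuccT1, was low at 1 μM and exceeded its solvent level at 10 μM. SESN2, a sestrin that restrains mTORC1, had 96, 210.1 and 631 against 751, 204 and 852, with the same return at 10 μM. HERPUD1, which serves the degradation of unfolded proteins of the endoplasmic reticulum, had 795, 1489.6 and 4546 against 5600.2, 2325 and 5656. DNAJB9, a cochaperone there, had 513, 680.2 and 2450.0 against 1672, 667 and 1835. For ATF3, SESN2, HERPUD1, DNAJB9 and ERN1 the 10 μM array of KKU-100 was therefore at or above solvent, and their opposite sign rests on the 1 μM array of that line.

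ID2, an inhibitor of helix-loop-helix transcription factors, showed the largest difference of the 62 genes, 3.43, with signals of 1040.4, 2108 and 1429 in HuccT1 against 169.9, 15.5 and 44.4 in KKU-100. Its KKU-100 signal at 1 μM was below the median of that array. SOCS1, an inhibitor of JAK kinases, went from a solvent signal under the median in HuccT1 upward, with 21, 34.1 and 73.8, and had 123, 35.2 and 57.3 in KKU-100, with a difference of 2.71. Its 3 other probe sets pointed the same way with smaller values, from 0.14 to 0.76.

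LIFR, the receptor of leukemia inhibitory factor, had 219, 326 and 364 in HuccT1 against 148, 45.8 and 83.5 in KKU-100. It differs from most of the group in that HuccT1 had the higher solvent signal, and its 4 other probe sets ranged from −0.21 to 1.28. ITGB8, the integrin subunit that activates TGF-beta, had 563, 1118 and 967 against 1139, 756 and 672, and the lines changed order at 1 μM, though its 4 other probe sets gave differences of only −0.14 to 0.86. TIAM2, an activator of RAC1, had 24.6, 28.9 and 66.1 against 227, 46.8 and 134, with −0.16 and 0.16 in its 2 other probe sets, and GRHL1, an epithelial transcription factor of the grainyhead family, 249.6, 293 and 626 against 70.5, 15.3 and 40.4. KLHL28, of the kelch-like family, had 164, 172 and 404 against 1281, 198 and 604, with a difference of 2.57 and of 2.54 and 0.42 in its 2 other probe sets.

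Of the remaining genes, SERPINI1, which encodes the protease inhibitor neuroserpin, had 19.7, 20.1 and 74.8 in HuccT1, with 2 of these arrays under the median, and 712, 334 and 418 in KKU-100. TRIM38, a ubiquitin ligase that limits innate immune signalling, had 116, 191 and 251 against 974, 425 and 606, and its 3 other probe sets gave differences from 1.06 to 1.60. PPP1R36, a subunit of protein phosphatase 1, had 75.7, 126 and 177 against 95.4, 41.8 and 61.2, KIAA1217 85.6, 162 and 137 against 121, 66.7 and 66.7, and the zinc finger gene ZNF184 102, 131 and 210.0 against 429, 166 and 347. The other probe sets of KIAA1217 gave smaller differences, from 0.19 to 1.21. The other genes of the 26, given to complete the list, were PAG1, CCDC126, KIZ, PIK3R1, ZNF222 and DNAJB4, with differences from 1.47 down to 1.34. In 21 of the 26 genes all 4 changes against solvent had the sign of their line's response.

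**Figure D2:**
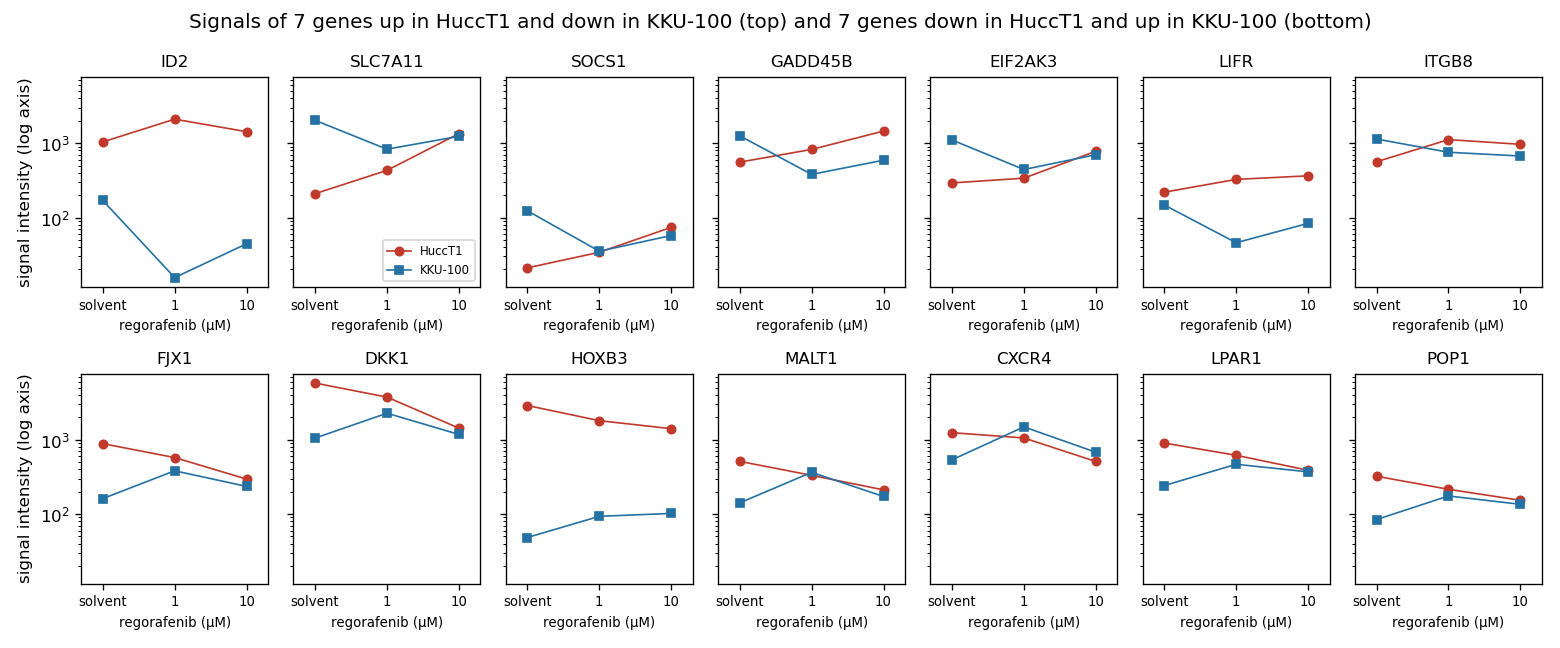
Signal intensity on a log axis of 14 genes with opposite responses at solvent, 1 and 10 μM regorafenib in HuccT1 (red circles) and KKU-100 (blue squares), 1 array a point. In most panels the lines start apart and lie closer at 10 μM, as for SLC7A11 with 1347 and 1239, whereas ID2 and HOXB3 stay far apart.

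The 36 genes down in HuccT1 and up in KKU-100 included the following. DKK1, a secreted inhibitor of WNT signalling, had 5789.5, 3744 and 1432 in HuccT1 against 1052, 2274 and 1177 in KKU-100, a difference of −1.96. FJX1, a Golgi protein of the four-jointed family and a known YAP1 target, had 886, 575 and 295 against 161, 382 and 235, a difference of −2.00. In both genes HuccT1 started far higher and the lines lay close together at 10 μM. CXCR4, the receptor of the chemokine CXCL12, had 1244, 1056 and 509 against 537, 1489 and 679, and its 2 other probe sets gave −1.62 and −1.54 beside −1.67. LPAR1, a receptor of lysophosphatidic acid, had 902, 617 and 388 against 242, 467 and 369.7, with −1.51 and −1.32 in its 2 other probe sets beside −1.66.

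HOXB3, a homeobox gene, had 2887, 1806 and 1407 in HuccT1 against 48.3, 93.1 and 102 in KKU-100, so that it stayed far higher in HuccT1 on each treatment. ERF, an ETS repressor that ERK phosphorylation keeps out of the nucleus, had 134, 117 and 51.3 against 225, 572 and 351, and was the higher in KKU-100 throughout. MALT1, the paracaspase of NF-kB activation, had 512, 332 and 211 against 141, 364 and 172, and its 2 other probe sets gave −1.67 and −1.64. UHRF1, a reader of DNA methylation, had 1799.5, 1399 and 773 against 396, 899 and 570.3, and KANK1, an adaptor at focal adhesions, 133, 78.2 and 96.1 against 238, 584 and 413. The value of KANK1 depends on its probe set, since the difference was −1.66 in the brightest one and 0.00 and 0.09 in the other two. NANOS1, an RNA-binding repressor of translation, had 923, 608 and 384 against 117, 227 and 183, and POP1, a subunit of the RNA processing enzymes RNase P and MRP, 322, 215 and 153 against 84.3, 175 and 135. Other probe sets, below the level filter, gave differences of only −0.30 for HOXB3, −0.59 for ERF and −0.28 for NANOS1.

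MCM3AP-AS1, a long noncoding RNA, had the largest difference of the 36, −2.18, with 201, 160.2 and 62.2 in HuccT1 against 19.3, 52.7 and 35.9 in KKU-100. Its other probe sets, below the level filter, gave −0.36 and −0.28. DLEU2, a host transcript of microRNAs, had 131, 54 and 59.6 against 59, 105 and 85, but of its 6 other probe sets 3 gave differences of 0.04 to 0.23 and 3 of −0.64 to −0.19. TMPO-AS1 had 110.0, 96.1 and 47 against 39.5, 101 and 63.5, and MIR210HG, the host transcript of a microRNA induced by hypoxia, 125, 146 and 31.9 against 60.2, 148 and 102. ZC3HAV1L and ZBTB47, zinc finger genes, had differences of −1.87 and −1.89, and a second probe set of ZC3HAV1L gave 0.35. The others, given to complete the list, were NSD1, NEXN, LRFN4, PUM3, PHF23, SYNCRIP, CCDC9B, TUBB6, INF2, SPEN-AS1, GGA2, RIOX1, PWP2, ZBTB42, MPP3, TSC22D1, RPGRIP1L, ZNF514 and PPARGC1B, from −1.58 to −1.23. All 4 changes had the sign of their line's response in 35 of the 36 genes, MIR210HG being the exception.

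The 3 largest differences of responses without regard to sign belonged to genes that were lower than solvent in both lines, but far more so in KKU-100. EGR1, a zinc finger factor of the immediate early response, had 380.4, 107 and 209.9 in HuccT1 against 7841, 36.1 and 369 in KKU-100, a difference of 4.74, and its 2 other probe sets gave 4.47 and 5.20. FOS, the AP-1 subunit, had 55.6, 33.4 and 49.5 against 937, 31 and 29.6, a difference of 4.50. CCN2, a secreted matrix protein also called CTGF and a YAP1 target, had 278, 115 and 77.8 against 6777, 148 and 192, a difference of 3.78. All 3 genes had low or moderate signals on 5 arrays and a high signal with solvent in KKU-100, so that the difference follows that 1 array.

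ARRDC4, an arrestin-like regulator of glucose uptake, had 315, 171 and 703 in HuccT1 against 1829.7, 99.7 and 308 in KKU-100. TENT5C, a poly(A) polymerase, had 36.4, 36.9 and 77.8 against 211, 23.1 and 42.2, with 3.04 in a second probe set beside 3.31. Unlike these, CTH and ASNS differed through higher signals on treatment in HuccT1. CTH, an enzyme of cysteine synthesis, had 144, 483 and 1930.2 against 228, 167 and 257, a difference of 2.88, and ASNS, asparagine synthetase, 507, 1363 and 4907 against 1824, 803 and 2018, a difference of 2.87.

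On the other side, MCM3AP-AS1, FJX1, DKK1 and MIR210HG, given above, were among the 10 largest differences, and in the other 6 genes 1 line changed far more than the other. NOG, the BMP antagonist noggin, had 198, 77.8 and 45.1 in HuccT1 against 138, 244 and 128 in KKU-100, and DUSP4, a phosphatase of MAP kinases, 1506, 591 and 202 against 1458, 1947 and 971. TNS4, a tensin of cell adhesion sites, had 718, 274 and 112 against 60.1, 67.3 and 54.4, and GJC1, the gap junction protein connexin 45, 102, 35.3 and 31.7 against 449, 659 and 585. Other probe sets gave differences of −2.14 and −1.76 for DUSP4, −0.86 for TNS4 and only −0.32 to −0.23 for GJC1. The GJC1 probe set among these past the level filter had responses of −0.65 in HuccT1 and −0.36 in KKU-100. In the brightest probe sets of these 4 genes the KKU-100 response was between −0.08 and 0.47. RHOV, a small GTPase, and MMACHC, a protein of vitamin B12 handling, showed the reverse, with 59.3, 69.3 and 63.1 against 123, 691 and 402 for RHOV and 187, 170.4 and 121 against 46.5, 149 and 130.2 for MMACHC.

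**Figure D3:**
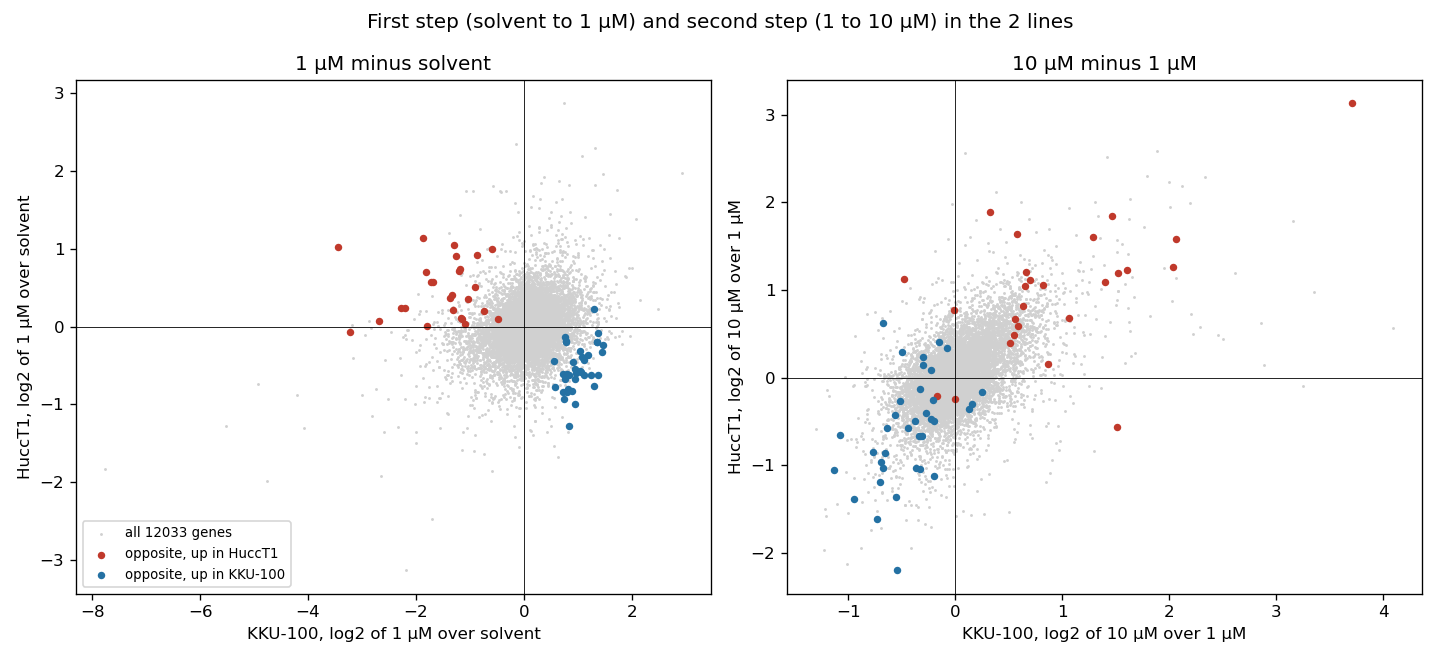
Change from solvent to 1 μM (left) and from 1 to 10 μM (right), as log2, in KKU-100 (x axes) and HuccT1 (y axes), for 12033 genes (grey) and the genes with opposite responses (red, up in HuccT1; blue, up in KKU-100). In the first step 25 of the 26 red and 35 of the 36 blue genes have opposite signs in the lines, which follows largely from their choice. In the second step 21 of the 26 red genes are higher in both lines and 26 of the 36 blue genes lower in both.

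The step from 1 to 10 μM does not use the solvent arrays, and in it the lines moved together. Its Pearson r between the lines was 0.555 over the 12033 genes (Spearman rho 0.500), against 0.227 for the responses. Of the 26 genes up in HuccT1, 21 (80.8%) were higher at 10 than at 1 μM in both lines, against 32.8% of all genes, with median steps of 1.08 in HuccT1 and 0.68 in KKU-100. Of the 36 genes up in KKU-100, 26 (72.2%) were lower at 10 than at 1 μM in both lines, against 33.9% of all, with medians of −0.54 and −0.37. Opposite signs were found in 25 of 26 and 35 of 36 genes in the step from solvent to 1 μM, ATF3 and MIR210HG being the exceptions, and in 4 and 10 in the step from 1 to 10 μM. The response that chose these genes holds the step from solvent to 1 μM in full. The signs in that step therefore follow largely from the choice, and no share over all genes was taken for these counts. In the 26 genes the first step had medians of 0.38 in HuccT1 and −1.31 in KKU-100. The wider groups had 193 of 271 genes (71.2%) higher in both and 210 of 313 (67.1%) lower in both.

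The shape over dose therefore differed between the lines in these genes. In HuccT1 the 10 μM array was the farther from solvent and in KKU-100 the 1 μM array, both at once, in 21 of 26 and 26 of 36 genes with opposite responses, in 59.4% and 62.6% of the 2-fold groups and in 30.2% of all genes. SESN2, HERPUD1 and ATF3 illustrate it, being lowest in KKU-100 at 1 μM and back at or above solvent at 10 μM, and highest at 10 μM in HuccT1. At 10 μM only 5 of the 26 genes exceeded solvent in KKU-100, and all 36 of the other group did. Taken at 10 μM alone, 41 and 51 genes had opposite responses, of which 29 were among the 62, and at 1 μM alone 34 and 28, of which 26 were.

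The genes with different responses also differed between the lines before treatment. Among the 271 genes with the higher response in HuccT1, 226 had the lower solvent signal in HuccT1, against 6073 of all 12033. At least 2-fold higher in KKU-100 were 159 (58.7%), against 11.95% of all genes. Among the 313 with the higher response in KKU-100, 155 (49.5%) were at least 2-fold higher in HuccT1, against 12.2% of all. The shares were 19 of 26 (73.1%) and 24 of 36 (66.7%) among the opposite responses. The median gap between the lines, as log2 of HuccT1 over KKU-100, went from −1.99 with solvent to −0.16 after treatment in the 26 genes, and from 1.25 to −0.27 in the 36.

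The gap narrowed in 44 of the 62 genes (71.0%), against 56.9% of all genes. Exceptions were ID2, GRHL1, LIFR and ERN1, in which HuccT1 started higher and ended farther above, and ERF, KANK1, MPP3, TSC22D1 and RPGRIP1L, in which KKU-100 did. In GADD45B, KIAA1217, PPP1R36, ZBTB47, ZC3HAV1L, NEXN, LRFN4, GGA2 and ZNF514 the order of the lines turned and the new gap was the wider. SLC7A11, EIF2AK3, DKK1 and FJX1 are examples of narrowing.

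These shares use the solvent arrays both in the gap and in the response, so that an error in 1 solvent array moves both. The Pearson r between the difference of responses and the solvent gap was −0.386 over the 12033 genes (Spearman rho −0.395). With the gap taken over all 3 arrays of each line, in which errors of equal size cancel against those of the difference, it was −0.082 (rho −0.089). On that measure the median gap of the 271 genes was −0.31 and 167 were lower in HuccT1, against 6135 of all 12033. The median gap of the 313 was 0.13. For the 26 and 36 genes the medians were −0.74 and 0.23. How far the narrowing reflects the single solvent arrays was not tested.

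**Figure D4:**
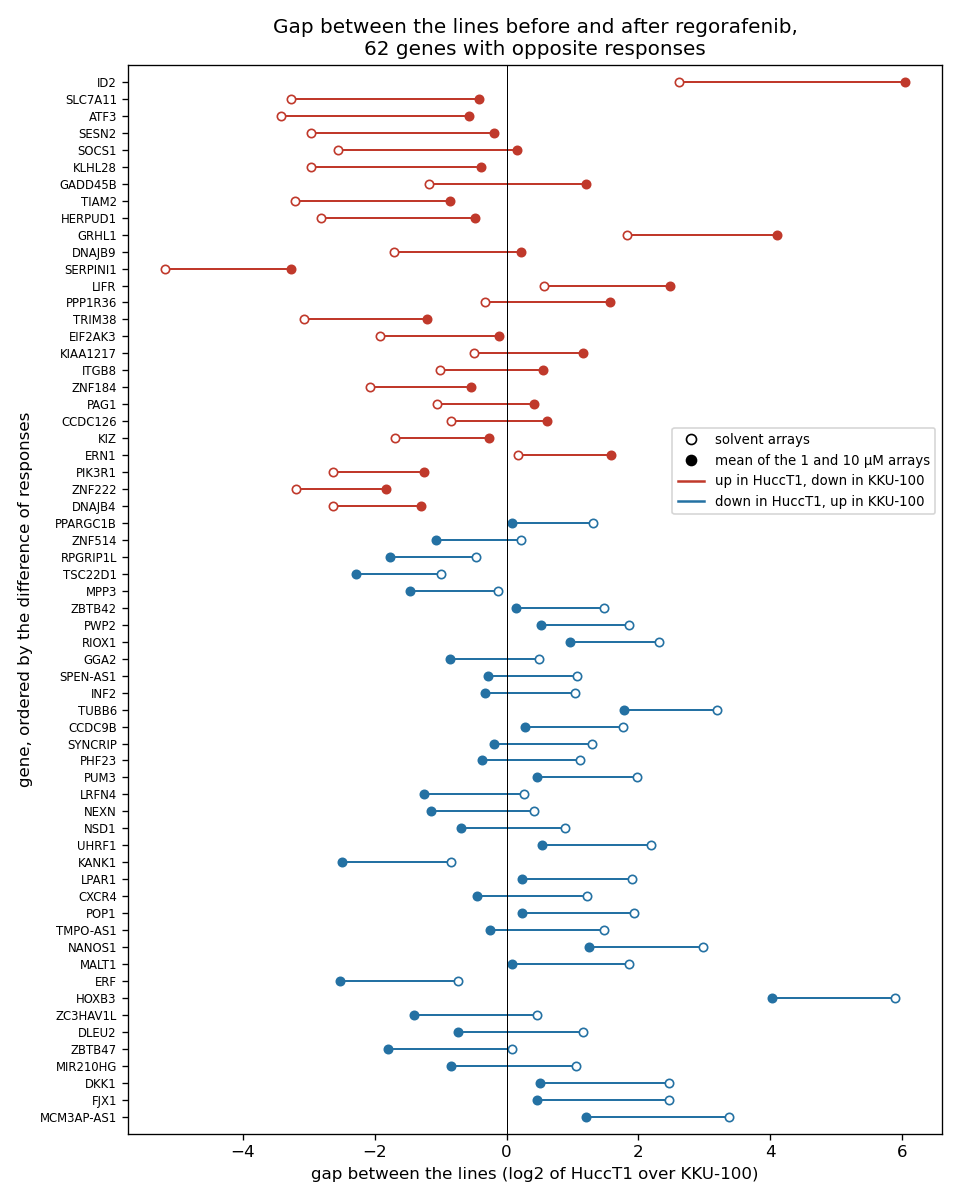
Gap between the lines, as log2 of HuccT1 over KKU-100, of the 62 genes with opposite responses with solvent (open circles) and as the mean of the treated arrays (filled circles). Most red genes (up in HuccT1) start below 0 and most blue genes (up in KKU-100) above 0, and 44 of the 62 end closer to 0 than they began.

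Of 35 lists of genes with a known role, the ATF4 targets had the largest median difference between the lines. Of 33 genes past the filter, 14 had a difference of 1 or more (42.4%, against 2.25% of all genes) and 0 of −1 or less (against 2.6%). The median difference was 0.65, against −0.03 over all genes. These shares of all genes, 2.25% and 2.6%, are the background for the counts of every list below. The lists overlap, and SLC7A11, SESN2, ATF3, GADD45A and PMAIP1 each count in more than 1, so the counts are not separate results. The median response of the ATF4 targets was 0.87 in HuccT1 and 0.11 in KKU-100. By dose their median change against solvent was 0.49 and 1.16 in HuccT1 at 1 and 10 μM, and −0.09 and 0.31 in KKU-100. With solvent, 21 of the 33 had the lower signal in HuccT1, against 6073 of all 12033 genes. Their median solvent gap, as log2 of HuccT1 over KKU-100, was −1.05, against −0.01 over all genes. Besides SLC7A11, ASNS, CTH, SESN2 and ATF3, DDIT3, the stress factor CHOP, had 316, 726 and 2898 in HuccT1 against 1177, 451 and 2066 in KKU-100, and CHAC1, which degrades glutathione, 83.2, 278 and 662 against 258, 135 and 520.0.

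Other ATF4 targets differed little or the other way. PCK2, the mitochondrial enzyme of gluconeogenesis, had 113, 238 and 529 in HuccT1 against 97.2, 150.1 and 471 in KKU-100, with a difference of 0.20, and PSAT1, of serine synthesis, had responses of −0.42 in HuccT1 and 0.18 in KKU-100. At 10 μM DDIT3, CHAC1 and PCK2 were above solvent in both lines. The aminoacyl-tRNA synthetases, which share ATF4 control in part, had a median difference of 0.13 and 0 of 15 genes at 2-fold, with CARS1 the largest (0.95). Of 19 ER chaperone and degradation genes, 2 (10.5%) passed 2-fold, HERPUD1 and DNAJB9, and the list's median difference was 0.07, with XBP1 at 0.74.

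The upstream sequences of 3 of these genes are shown because they hold the letters TGATGNAA, the core of the ATF4 and C/EBP composite element. They give the 200 bases before the first start site that RefSeq lists for the gene in GRCh38.p14, read 5′ to 3′ along the gene's strand, with matches to any motif searched in capitals. ASNS lies at chr7:97872409-97872608 (minus strand), with its match 68 bases before the start, ATF3 at chr1:212565207-212565406 (plus strand), with a match at 191, and HERPUD1 at chr16:56931942-56932141 (plus strand), with a match on the opposite strand at 176 and 2 further capital runs, an E-box and a SMAD motif.
ASNS: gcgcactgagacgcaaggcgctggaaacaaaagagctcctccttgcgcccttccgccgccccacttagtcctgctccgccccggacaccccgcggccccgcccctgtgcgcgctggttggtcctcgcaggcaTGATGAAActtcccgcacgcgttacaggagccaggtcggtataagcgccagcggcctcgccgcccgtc
ATF3: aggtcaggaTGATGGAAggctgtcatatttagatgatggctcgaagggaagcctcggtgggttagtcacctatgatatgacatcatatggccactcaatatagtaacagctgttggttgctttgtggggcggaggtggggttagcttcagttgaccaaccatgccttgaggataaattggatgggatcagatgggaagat
HERPUD1: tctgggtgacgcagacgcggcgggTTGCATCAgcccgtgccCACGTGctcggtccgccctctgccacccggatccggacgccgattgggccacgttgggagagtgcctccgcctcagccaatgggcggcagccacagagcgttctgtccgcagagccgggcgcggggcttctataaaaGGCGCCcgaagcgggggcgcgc

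In the window from 250 bases before to 50 bases after the start, TGATGNAA stood in 15 of 232 promoters (6.47%) of the genes with the higher response in HuccT1 and in 3 of 241 (1.24%) of those higher in KKU-100. The share was 1.78% over 9774 genes past the filter and 3.67% over all 27305 promoters of the table. Among the opposite genes it was in 2 of 24 (8.33%) of those up in HuccT1 and 0 of 31 of those up in KKU-100. The 15 genes were ASNS, ATF3, CHAC1, HERPUD1, SLC3A2, GOT1, NCOA7, BCL6, AOC2, CDC25C, FBLL1, KLF12, LRRC49, OTUD3 and TRIM2. Not all of them were raised past 1.5-fold in HuccT1. In AOC2, FBLL1, OTUD3, BCL6, CDC25C and KLF12 the HuccT1 response was only 0.07 to 0.53. Their difference came mainly from KKU-100, with responses of −2.17 to −0.62. Among them SLC3A2, the partner chain of SLC7A11, had a difference of 1.39, and GOT1, an aspartate aminotransferase, 1.15. Both strands were searched, and a match is a description of letters, not of binding.

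The other motifs searched were AP-1 (TGANTCA), CRE (TGACGTCA), TEAD (GGAATG), EGR (GCGTGGGCG), E-box (CACGTG), SMAD (GGCGCC) and the interferon element, and no motif contains another. Their shares over all promoters were 7.76%, 1.98%, 14%, 0.784%, 7.43%, 19% and 3.65%. In the genes with the higher response in HuccT1, AP-1, CRE, EGR, SMAD and the interferon element had 6.47%, 3.02%, 2.59%, 36.2% and 4.74%. Those higher in KKU-100 had 5.81%, 4.15%, 0.83%, 29.9% and 1.24%, and genes past the filter 4.66%, 3.26%, 1.43%, 30.5% and 2.65%. CACGTG was in 40 of 241 promoters (16.6%) of genes higher in KKU-100, and in 10.8% of those higher in HuccT1, against 10.3% of genes past the filter. Among the opposite genes it was in 8 of 31 (25.8%) of those up in KKU-100 and in 4 of 24 (16.7%) of those up in HuccT1. GGAATG, bound by the TEAD partners of YAP1, was in 12.5% of the genes higher in HuccT1 and 12% of those higher in KKU-100, and in 4 of 24 (16.7%) and 6 of 31 (19.4%) of the opposite ones, against 10.7%. CCN2, at chr6:131951373-131951572 (minus strand), held it 3 times, at 169, 104 and 95 bases before the start, and FJX1, at chr11:35618260-35618459 (plus strand), held CACGTG at 85 and GGCGCC at 74. These 2 YAP1 targets are shown because their responses differed in opposite ways.
CCN2: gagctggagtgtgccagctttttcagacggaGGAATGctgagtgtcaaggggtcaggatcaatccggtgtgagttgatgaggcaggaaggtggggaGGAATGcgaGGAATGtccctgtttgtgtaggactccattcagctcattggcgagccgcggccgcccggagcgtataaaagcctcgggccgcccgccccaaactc
FJX1: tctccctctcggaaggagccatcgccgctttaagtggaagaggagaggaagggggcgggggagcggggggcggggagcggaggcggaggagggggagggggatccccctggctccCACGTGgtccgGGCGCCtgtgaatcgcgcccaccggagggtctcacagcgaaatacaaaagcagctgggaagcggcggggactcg

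The immediate early genes also differed. Of 24 past the filter, 10 had a difference of 1 or more (41.7%, against 2.25% of all genes) and 2 of −1 or less (8.33%, against 2.6%). The median response was −0.46 in HuccT1 and −1.02 in KKU-100. With solvent, 20 of the 24 had the lower signal in HuccT1, against 6073 of 12033 over all genes. MAFF, a small MAF factor, had 1975, 800.0 and 693 in HuccT1 against 2184, 129 and 271 in KKU-100, and SERTAD1, a regulator of E2F and CDK4, 356, 186 and 333 against 4668, 811 and 773. The 2 genes on the other side were MYC and JUND. MYC had 2479.6, 1149 and 787 against 874, 1098 and 790.1, with responses of −1.38 in HuccT1 and 0.09 in KKU-100, and JUND, another AP-1 subunit, lay just past the cutoff with 719, 378 and 615 against 1448, 1752 and 2159.7.

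Of 20 feedback genes of the MAP kinase pathway, 11 lay down past 1.5-fold in HuccT1, against 3.57% of all genes, and 12 in KKU-100, against 5.29%, with a median response of −0.75 in HuccT1 and −0.95 in KKU-100 and a median difference of 0.10. Within the list the lines differed gene by gene. At 1 or more were 5 genes (25%, against 2.25% of all) and at −1 or less 1 (5%, against 2.6%). DUSP6, the ERK phosphatase, had 1812, 458 and 256 in HuccT1 against 2651, 97.8 and 241 in KKU-100, and SPRY2, a sprouty inhibitor, was nearly alike (−1.38 and −1.09). ETV5, an ETS factor, had 200.4, 151 and 217 against 1384, 155 and 268, and SPRY4 200.4, 115 and 129 against 649, 97 and 143, both with the high KKU-100 solvent signal seen for EGR1. DUSP4, given above, was the gene on the other side.

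Genes of ribosome biogenesis had the lower responses in HuccT1. All 30 had a negative difference, against 6476 of 12033 over all genes, and 4 had −1 or less (13.3%, against 2.6% of all). The median response was −0.52 in HuccT1 and 0.03 in KKU-100. RRS1, a ribosome assembly regulator, had 2303, 1364 and 1167 in HuccT1 against 821, 1301 and 1058 in KKU-100, and GRWD1, a histone chaperone of ribosome assembly, 386, 205 and 208 against 424, 622 and 453. The abundant nucleolar proteins NCL and NPM1 scarcely differed (−0.08 and −0.01). Among the 36 opposite genes PWP2, PUM3 and RIOX1, chosen here after their values were seen, are also nucleolar.

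Genes of G1/S and DNA replication had a median response of −0.13 in HuccT1 and 0.25 in KKU-100. Below 0 were 35 of 40 differences, against 6476 of 12033 over all genes. UHRF1, POLA2 and GINS1 were the 3 of −1 or less (7.5%, against 2.6% of all). RRM2, a subunit of ribonucleotide reductase, and CCNE2, a cyclin, had differences above 0 (0.45 and 0.73). G2/M genes had a median difference of −0.14, with PLK1 at −1.27 and CDC25C at 1.17. Cholesterol synthesis genes had median responses of −0.13 in HuccT1 and 0.22 in KKU-100. Of their differences 13 of 18 were below 0, beside 6476 of 12033 over all genes, and 0 were at 2-fold. HMGCS1 (−0.93) and LSS (−0.83) were the farthest from 0.

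**Figure D5:**
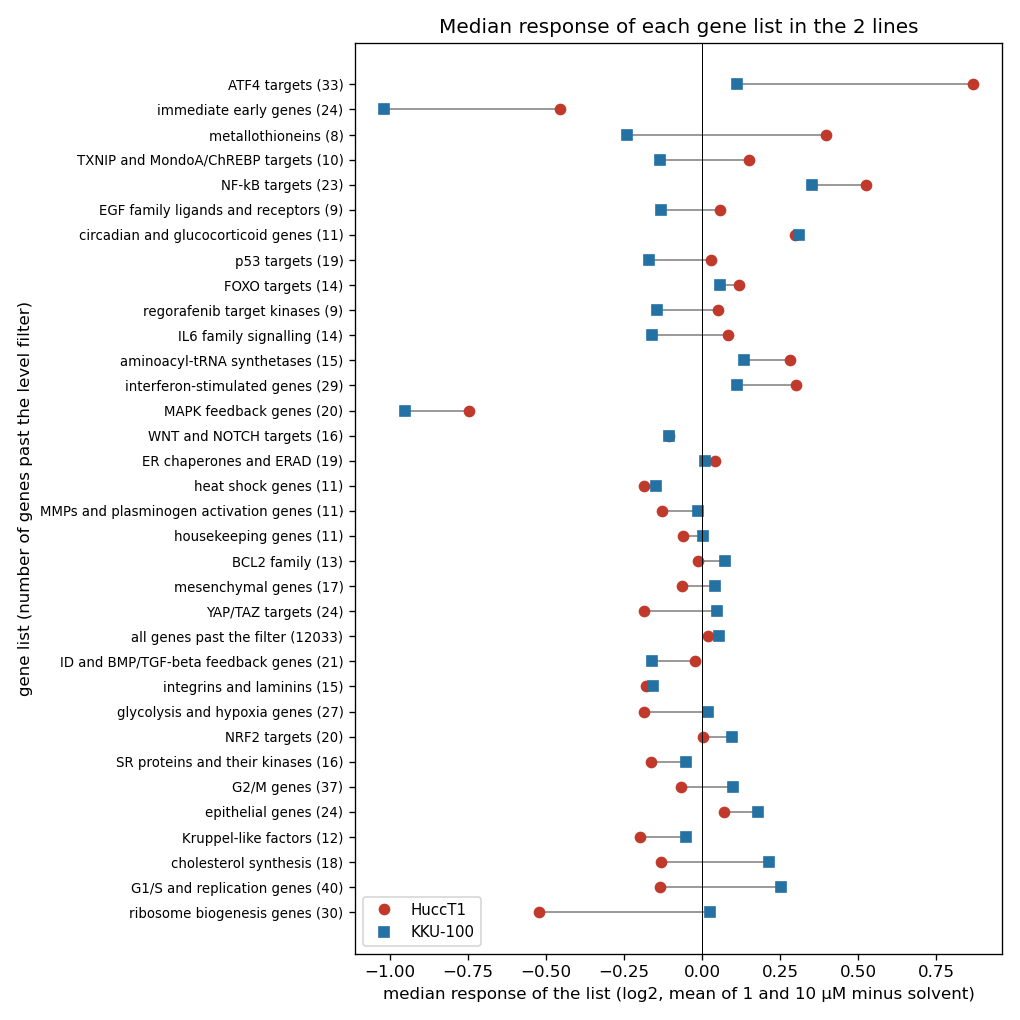
Median response of each gene list with 8 or more genes past the level filter in HuccT1 (red) and KKU-100 (blue), as log2, ordered by the median difference of responses, with the number of genes in brackets. ATF4 targets stand at 0.87 and 0.11 and ribosome biogenesis genes at −0.52 and 0.03, while MAPK feedback genes lie low in both lines.

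Targets of YAP1 and TAZ split in both directions. Their median difference was −0.02, near that of all genes. At 1 or more were 3 of 24 (12.5%, against 2.25% of all genes) and at −1 or less 4 (16.7%, against 2.6%). CCN2, GADD45B and GADD45A were the 3, and FJX1, ANKRD1, F3 and TGFB2 the 4. ANKRD1, a muscle ankyrin repeat protein, had responses of −1.24 in HuccT1 and 0.22 in KKU-100, and F3, tissue factor, −1.18 and 0.06. The ID and BMP/TGF-beta feedback genes split likewise, 2 and 2 of 21 (9.52% each). BAMBI, a decoy receptor, stood beside ID2 at 1.42 and TGIF2 beside NOG at −1.01.

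Interferon-stimulated genes had 4 of 29 at 1 or more (13.8%, against 2.25% of all genes) and 0 at −1 or less. All 29 had the lower solvent signal in HuccT1, against 6073 of all 12033 genes. IFIT2, an interferon-induced protein that binds RNA, had 98.4, 329 and 268 in HuccT1 against 2269.9, 1800.2 and 1617 in KKU-100, and IFIH1, the RNA sensor MDA5, 139.7, 213 and 407 against 1067, 959 and 1124. NF-kB targets had 4 of 23 at 1 or more and 3 at −1 or less. CXCL8, interleukin 8, had 7272, 7626 and 8417 against 4114, 562 and 4159, so that its difference of 1.57 rests on the 1 μM array of KKU-100, and IL1B, interleukin 1 beta, had 1522, 628 and 374 against 144, 127 and 125.

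Of the cell death genes, MCL1 and BCL2L11 encode a survival protein and the death protein BIM. MCL1 had 3275, 2347 and 3187 against 5281, 1496 and 1951, and BCL2L11 171, 136 and 178 against 492, 168 and 179, each in the brightest probe set. The responses depend on the probe set, since the 5 others of MCL1 ranged from −1.25 to −0.03 in HuccT1 and from −2.65 to −0.72 in KKU-100, and the 6 others of BCL2L11 from −0.23 to 0.37 and from −1.28 to −0.03. PMAIP1, the death protein NOXA, was the third of 13 BCL2 family genes past 2-fold (1.02), a share of 23.1% against 2.25% of all genes. The median difference of the family was −0.0007, and 7 of the 13 differences were below 0. Of 19 p53 targets 4 (21.1%) were at 1 or more, SESN2, GADD45A, PMAIP1 and TNFRSF10D. Of these SESN2 also counts among the ATF4 targets, GADD45A among the YAP1 and TAZ targets and PMAIP1 in the BCL2 family. TNFRSF10D, a decoy receptor of TRAIL, had 293, 132 and 208 against 1252, 178 and 225.

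Epithelial genes gave 1 of 24 at 1 or more (4.17%, against 2.25% of all genes), GRHL1, and 2 at −1 or less (8.33%, against 2.6%), CDH1 and PKP2. CDH1, E-cadherin, had 2628, 3238 and 2714 in HuccT1 against 22.9, 76.7 and 79.9 in KKU-100, and PKP2, a desmosome protein, 719, 776 and 634 against 99.7, 279 and 249, so that both were higher than solvent in KKU-100, from a level far below that of HuccT1. The solvent signal of CDH1 in KKU-100 was below the median of that array, and the other probe set of each gene gave a difference of the opposite sign, 0.31 for CDH1 and 0.14 for PKP2. Mesenchymal genes gave 0 of 17 at 2-fold. Metallothioneins, zinc-binding proteins, had 7 of 8 differences above 0, beside 5557 of 12033 over all genes. Their median response was 0.40 in HuccT1 and −0.24 in KKU-100, with MT1E (0.99) and MT1G (0.91) the largest and 0 at 2-fold. The probe sets read for MT1E, MT1F and MT1G are marked as shared between transcripts, so these genes may not be told apart. Other probe sets gave differences of 0.35 for MT1E, 0.95 for MT1F and 1.12, below the level filter, for MT1G. Of 10 glucose-sensing genes around TXNIP, ARRDC4 and TXNIP passed 2-fold (20%, against 2.25% of all genes). TXNIP had 1284, 456 and 2609.7 against 833, 208 and 554, and its sign turns to −0.20 without the 10 μM array of HuccT1. It passed 2-fold only in its brightest probe set, since the others gave 0.75 and 0.84, with HuccT1 responses of −0.39 and −0.43.

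In the remaining lists, whose counts stand beside 2.25% and 2.6% of all genes, there were at 1 or more and at −1 or less 1 and 1 of 9 EGF family genes (11.1% each, HBEGF at 1.03 and ERBB3 at −1.14), 1 and 2 of 12 Kruppel-like factors (8.33% and 16.7%), 1 and 1 of 11 heat shock genes (9.09% each), 2 and 0 of 20 NRF2 targets, 0 and 2 of 27 glycolysis and hypoxia genes, 1 and 0 of 15 integrins and laminins, 1 and 1 of 14 IL6 family genes, 0 and 1 of 11 circadian genes, 0 and 1 of 16 WNT and NOTCH targets, and 2 and 1 of 14 FOXO targets (14.3% and 7.14%). None of 9 regorafenib target kinases, 11 protease genes and 16 SR protein genes reached 2-fold. HK2 and SLC2A1, a hexokinase and a glucose transporter, were the hypoxia genes, with 841, 408 and 231 against 899, 917 and 904 for HK2 and 1156, 674 and 363 against 675, 771 and 608 for SLC2A1. HSPB1, a small heat shock protein, had a difference of −1.45 and DNAJB1, a cochaperone, of 1.28. IRS1 and IRS2, adaptors of the insulin receptor, differed in opposite directions (−1.52 and 1.95), with 1137, 1305 and 1250.2 against 1070.0, 283 and 343 for IRS2.

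Other probe sets of the same genes were not used to choose them. Of 50 other probe sets of the 26 genes, whatever their level, 46 had a difference of the same sign and 22 (44%) of the same sign and 2-fold, and of 57 of the 36 genes, 48 and 13 (22.8%). For the 271 and 313 genes the same sign was found in 415 of 477 (87.0%) and 291 of 363 (80.2%), against 64.6% of 16992 over all genes, where 3.58% were past 2-fold. Among the probe sets past the level filter themselves the same sign was found in 26 of 29 and 28 of 30 for the opposite genes, against 70.6% of 9548 over all, a count that leaves out all 6 others of DLEU2. Probe sets of a gene share the array and the RNA, so they check the probe and not the culture. Where a gene was given the median of its probe sets in place of the brightest, 12 and 23 genes had opposite responses, of which 26 were among the 62.

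The counts also followed single arrays. Without the 1 μM array of HuccT1 or the 10 μM array of KKU-100, in which the changes were mostly the smaller, 76 and 88 or 59 and 62 genes had opposite responses, and without the 10 μM array of HuccT1 or the 1 μM array of KKU-100, 12 and 21 or 18 and 22. Genes with a 2-fold difference numbered 517 and 511 without the first and 446 and 436 without the second. At 2-fold in each line in place of 1.5-fold, 3 and 1 genes had opposite responses. Low signals touched 5 of the 26 and 4 of the 36 genes, which lay below the array median on 1 or 2 arrays, and 4.25% of all genes did so on 1 or more. These were GRHL1, ID2, SERPINI1, SOCS1 and TIAM2, and MCM3AP-AS1, ZBTB42, ZBTB47 and ZNF514.

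At the edge of the groups, CTDSPL2 was the last gene inside a difference of 1 (1.0016) and ZNF436-AS1 the first outside (0.998), and SPINK4 (−1.0003) and EVA1C (−0.998) stood on either side of −1. DNAJB4 was the opposite gene nearest the cutoff on 1 side, with REL just outside, and ZNF514 on the other, with TMEM177 just outside. Among 3621 probe sets past the filter without a single gene symbol, 66 and 91 differed by 2-fold and 2 and 12 had opposite responses.

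In a fit of all 6 arrays with the doses of a line pooled, limma called 0 of 12033 genes (0%) for the interaction of line and treatment at an adjusted p under 0.05, with a smallest adjusted p of 0.604. At an unadjusted p under 0.05 it had 354 genes with the higher response in HuccT1 and 633 in KKU-100. The methods' t-test on the same term gave 0 after adjustment and 290 and 542 before. The fit has 2 residual degrees of freedom, which come from the difference between the doses and not from replicates, so that a gene that changed between 1 and 10 μM has a large error. The counts of 0 do not show that the responses were alike.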

How the data were processed

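RNA of HuccT1 and KKU-100 cells was hybridised to Affymetrix human arrays, 6 in all, 1 for each line and dose. The authors deposited linear signal intensity per probe set, which the submitters' processing notes credit to MAS5 with no version, and the study's methods name a log2 normalization in GeneSpring. No columns of the authors' own comparisons were used. Here 62 control probe sets were left out and log2 of the deposited intensity was taken, with no further scaling or floor. Of the 54613 others, 41091 had 1 gene symbol, 1801 several and 11721 none listed, from the platform annotation updated through gene IDs. Each gene was read from its brightest probe set, by the mean over arrays. A gene passed where its mean over the 3 arrays of each line was at or above the median of all probe sets there. The difference of responses was then taken for each of the 12033 genes past this filter, with cutoffs of 2-fold for the difference and 1.5-fold for the response of 1 line.

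The interaction of line and treatment was fitted with limma 3.58.1 in R 4.3.3 (eBayes with a trend, Benjamini-Hochberg adjustment), which has 2 residual and 3.05 prior degrees of freedom. Python 3.11.15 with numpy 2.4.6, pandas 2.3.3, scipy 1.17.1 and matplotlib 3.10.9 served for the rest, and the scripts were tested on simulated data. The rule for named genes took, in each direction, 15 opposite responses with all 4 changes in the direction of their line and the 10 largest differences, and 3 members of each list by size of difference, 130 genes in all. Genes outside it are named only to complete a list or as values chosen after they were seen. The members, lists and tests were chosen with earlier results of these data known. Alternatives were quantile normalization, median centring, signals floored at their 20th percentile, the level filter dropped or raised to the 60th percentile, the median over probe sets, leaving out probe sets marked as shared between transcripts, other cutoffs, each dose alone, each treated array left out, eBayes without a trend or with the robust option and the methods' t-test. The gap over 3 arrays was added after seeing the data. Promoters are those of RefSeq on GRCh38.p14, matched by symbol for 24 of the 26 and 31 of the 36 opposite genes. Precision is limited by the number of arrays, and with 1 array a condition the error of a single value is unknown.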

Additional observations from a re-analysis of the deposited data

Results flagged for a closer look

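The criterion here was that all 4 changes against solvent had the sign of their line's response, with both responses past 1.5-fold. Of the 62 opposite genes 56 met it, and the 30 listed have the largest differences. The values in brackets are the difference of responses, HuccT1 minus KKU-100, as log2. Up in HuccT1 and down in KKU-100 were ID2 (3.43), SLC7A11 (2.87), SOCS1 (2.71), KLHL28 (2.57), GADD45B (2.39), TIAM2 (2.35), GRHL1 (2.28), SERPINI1 (1.91), LIFR (1.91), PPP1R36 (1.90), TRIM38 (1.86), EIF2AK3 (1.80), KIAA1217 (1.66), ITGB8 (1.56) and ZNF184 (1.54). Down in HuccT1 and up in KKU-100 were MCM3AP-AS1 (−2.18), FJX1 (−2.00), DKK1 (−1.96), ZBTB47 (−1.89), DLEU2 (−1.89), ZC3HAV1L (−1.87), HOXB3 (−1.87), ERF (−1.79), MALT1 (−1.78), NANOS1 (−1.74), TMPO-AS1 (−1.73), POP1 (−1.70), CXCR4 (−1.67), LPAR1 (−1.66) and KANK1 (−1.66). These are the 15 largest of the kind in each direction, so the sign follows from how they were chosen. Each line has 2 treated arrays that share 1 solvent array, and the difference was not tested beyond the limma interaction term, whose smallest adjusted p over all 12033 genes was 0.604. Other probe sets gave differences near 0 or of the opposite sign for several of the 30 genes, among them TIAM2, LIFR, ITGB8, EIF2AK3, SOCS1, ZC3HAV1L, KANK1 and DLEU2. Those of ZBTB47, MCM3AP-AS1, HOXB3, NANOS1 and ERF had the same sign but were smaller, from −0.59 to −0.28. Those of KIAA1217 and GRHL1 were smaller too, from 0.19 to 1.21. The other probe set of HOXB3 had responses of −0.40 in HuccT1 and −0.11 in KKU-100, which are not opposite.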

How the results depend on the processing

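Limma called 0 genes in either direction under each of its alternatives, and quantile normalization, median centring, the floor and both level filters kept each count of members within 1.5 times the reported one. The 271 and 313 genes with a 2-fold difference became 870 and 1237 at a cutoff of 1.5-fold, and 200 to 517 and 243 to 511 when 1 treated array was left out. The 26 genes with opposite responses up in HuccT1 became 12 with the median over probe sets, 41 at 10 μM alone and 3 at 2-fold in each line, and 12 to 76 with 1 treated array left out. The 36 of the other direction became 23, 51 and 1, and 21 to 88 with 1 left out. The share with a narrowed gap, 71.0%, ranged from 57.9% to 70.0% with 1 array left out. The correlation with the solvent gap went from −0.386 to −0.082 with the gap over 3 arrays, an alternative added after seeing the data. Of the 62 genes, 58 were shared under quantile normalization, 60 under median centring, 48 without probe sets shared between transcripts and 26 with the median over probe sets. Quantile normalization and median centring moved the median difference of all genes from −0.03 to −0.01 and −0.07.

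The sign turned in 4 values of named genes. Without probe sets shared between transcripts DLEU2 gave 0.23, KANK1 0.001 and PER3 0.48, since another probe set then stood for the gene, and TXNIP ranged from −0.20 to 2.32 with 1 treated array left out. Of the other values of named genes under the alternatives, 1287 moved by no more than the SD between the doses and 369 by more, and of the list medians 332 and 123. No paired analysis was possible because each group has only replicate 1. Leaving out a solvent array gives no response for its line and was not run. How far the deposited values would change with another summary of the probes was not tested.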
